A study of Xenopus laevis with 3 samples.

Results

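Cadherins, protocadherins, integrins and immunoglobulin-type adhesion molecules were examined in the inner ear of larval Xenopus laevis, the African clawed frog. Members were all frog probe sets with a single gene symbol that, without its copy suffix, begins with one of these names or is boc. The names are cdh, cntn or cadm followed by a digit, and pcdh, ctnna, ctnnd, itga, itgb, ncam, l1cam, nrcam, nfasc, nectin, alcam, mcam or cdon. This rule took 90 of 15495 single-symbol probe sets, which stand for 49 of 9240 genes. No measured value entered the rule. The value of a gene is that of its probe set with the highest mean over the arrays. The study hybridized RNA from 3 pools of inner ears to Affymetrix GeneChip arrays, 1 array a pool. All animals were larvae of stages 56 to 58, aged 38 to 44 days after fertilization, with 10, 7 and 8 animals in replicates 1, 2 and 3 and mean body weights of 0.55, 0.59 and 0.48 g. There was 1 condition, with no treatment, no mutant and no second tissue, so the results are levels and their spread over 3 pools of whole organs. In a bulk sample, fewer cells of a type and less RNA per cell cannot be told apart.

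Cadherins are calcium-dependent proteins that bind the same or related cadherins on a neighbouring cell, and their tails hold catenins that connect to actin. Protocadherins share the extracellular repeats of cadherins but lack the catenin-binding tail. Integrins are pairs of an alpha and a beta subunit that bind matrix proteins, and the immunoglobulin-type molecules join cells to cells, above all axons, glia and sensory epithelia. In the inner ear, cadherin junctions join hair cells to supporting cells, and a pair of unusual cadherins, CDH23 and PCDH15, forms the tip links that pull on the mechanotransduction channels.

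GCRMA values, the log2 intensities deposited for each probe set, ran from 1.62 to 15.94, and a gene was taken as detected at a mean of 4 or higher, the study's own criterion. Pearson's r between arrays was 0.994 to 0.996 over 32475 frog probe sets. With 3 arrays, the precision of every mean is limited by their number. The tissue label was checked against otic markers. All 11 of the 21 listed genes that have a probe set were detected, among them otos at 15.02 ± 0.03, gjb2 at 14.88 ± 0.05 and myo6, a myosin of hair cells, at 12.39 ± 0.08 (SD, n = 3 each), while the hair cell genes otof, tmc1, myo7a and pou4f3 have none. By the same rule 79.9% of all 9240 annotated genes were detected, so a high count is usual for a list. Of the marker genes of other tissues, 6 of 6 cartilage genes, 3 of 4 bone genes, 10 of 12 neuron genes, 3 of 5 Schwann cell genes, 7 of 8 endothelial genes, 8 of 9 leukocyte genes, 8 of 9 skeletal muscle genes and 13 of 14 thrombocyte and red cell genes were detected. Most of these counts lie near or above the share of all genes, and those of bone and Schwann cells lie under it. Replicate 3 stood apart from the other pools in some of these lists, with 7 of 9 muscle genes lower and 5 of 14 thrombocyte and red cell genes higher by 1 log2 unit or more than the mean of replicates 1 and 2. Probe sets of different genes bind with different strength, so values are given gene by gene and their order is not an order of transcript numbers.

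N-cadherin, C-cadherin, cadherin-11, beta1 integrin, alpha-E-catenin, the gamma protocadherin pcdhga3 and the synaptic adhesion molecule cadm1 had values above 13 in all 3 pools. The leukocyte integrin subunit itgb2, the collagen-binding subunits itga2 and itga11, and the alpha4 and alphaV subunits stayed under 4. Of the 49 genes, 36 (73.5%) had a mean of 4 or higher, and 34 had a mean above 4 in limma's one-sided moderated test (p-values adjusted by Benjamini-Hochberg over the 32475 frog probe sets), with adjusted p-values of 1.16e-07 to 0.0281. Over all 9240 annotated genes, counted by the same rule, 79.9% reached 4 and 78.7% were called by limma. The members' share was thus near that of all genes and a little under it. Their median value was 8.04, against 9.60 over all genes, and 10 members (20.4%) had a value of 12 or higher, against 18.1% of all genes. The detected genes that limma did not call were itga2b.1 and itga2b.2. Without replicate 3, 35 genes (71.4%) were detected and 33 (67.3%) were called, against 79.8% and 78.4% of all genes, and itgb3 was the call that was lost. The families below hold 2 to 9 genes each, so their counts are descriptions, to be read beside the shares of all genes.

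**Figure D1:**
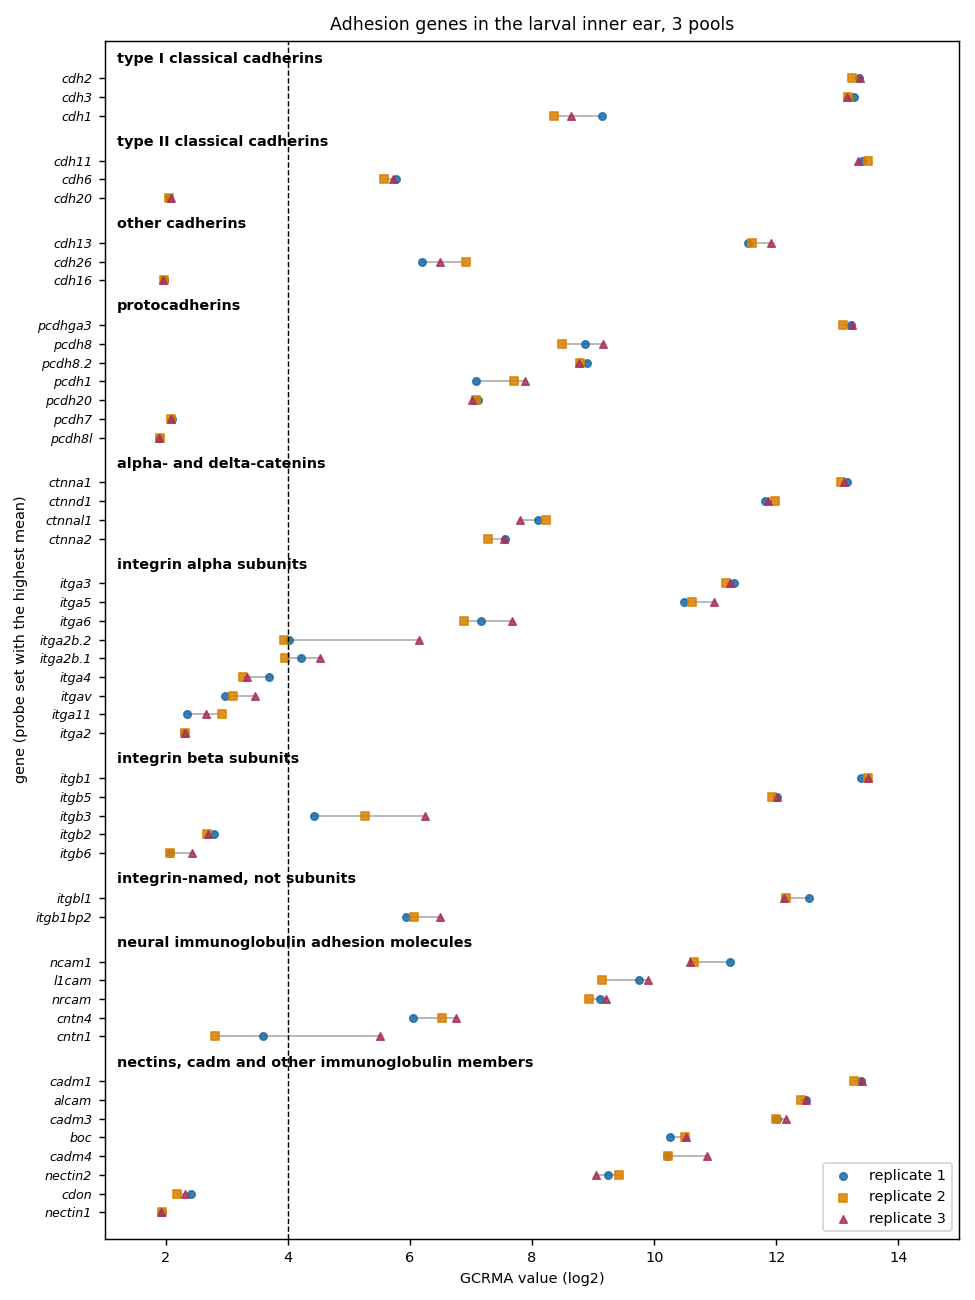
GCRMA values (log2, horizontal axis) of the 49 adhesion genes in replicates 1, 2 and 3 (circles, squares and triangles), ordered by value within each family, with grey lines from the lowest to the highest array and a dashed line at the detection level of 4. The 3 arrays lie close together for most genes, while cntn1, itga2b.2 and itgb3 spread over 1.82 to 2.71 log2 units with replicate 3 highest.

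The type I classical cadherins, which form the adherens junctions of epithelia and neural tissue, were detected in 3 of 3 genes. Over all annotated genes the share was 79.9%. N-cadherin (cdh2), the cadherin of neural tissue and of hair cell junctions, had 13.36, 13.24 and 13.38 in replicates 1, 2 and 3. C-cadherin (cdh3), the main cadherin of the early Xenopus embryo, had 13.27, 13.17 and 13.16. E-cadherin (cdh1), the cadherin of most epithelia, had 9.15, 8.36 and 8.63. The pools agreed within 0.13 log2 units for cdh2 and 0.10 for cdh3, whereas cdh1 was highest in replicate 1 by 0.52 or more and had a mean of 8.71 ± 0.40 (SD, n = 3).

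For cdh2 and cdh3 both gene copies of the allotetraploid frog, L and S, have a probe set. The probe sets of cdh2.L and cdh2.S had means of 13.32 ± 0.07 and 13.31 ± 0.03, and those of cdh3.L and cdh3.S had 13.07 ± 0.05 and 13.20 ± 0.06 (SD, n = 3 each). Probe sets annotated as either copy of both genes thus lay well above the detection level. Whether each binds its own copy alone was not tested. Another 3 probe sets annotated as cdh2.L lay at the floor of the arrays, at 1.63, 1.81 and 1.86, so the detection of cdh2 rests on 3 of its 6 probe sets. By their names the 3 at the floor share a design sequence, and both detected ones of cdh2.L share another.

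Among the type II cadherins, cdh11, which marks mesenchyme and migrating neural crest in Xenopus, had 13.40, 13.50 and 13.34. Cadherin-6 (cdh6) had 5.78, 5.57 and 5.71, a low value that limma nonetheless placed above 4 (adjusted p = 0.000389). The probe set of cdh20 stayed at 2.04, 2.04 and 2.08, next to the floor. Of the endothelial cadherin cdh5 no probe set was annotated, so this cell type is seen only through other genes, such as egfl7 at 12.46 ± 0.04 and pecam1 at 7.31 ± 0.19 (SD, n = 3 each). Of the 8 endothelial markers with a probe set only flt1 was not detected, at 2.08 in all 3 pools.

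Cadherins outside the classical groups were split as well. T-cadherin (cdh13), which is held in the membrane by a lipid anchor and has no catenin-binding tail, had 11.53, 11.61 and 11.91. The value of cdh26 was 6.20, 6.92 and 6.49, from 1 probe set. Both probe sets of cdh16, a cadherin known from the kidney in mammals, were under 2 in every pool, with means of 1.96 and 1.93. The tip link cadherins cdh23 and pcdh15 had no probe set annotated with them, and their levels were not analysed here.

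Protocadherins were detected in 5 of 7 genes, beside 79.9% of all annotated genes. The gamma cluster gene pcdhga3 had 13.22, 13.10 and 13.24, and its other 2 probe sets had 10.80 ± 0.19 and 9.21 ± 0.28 (SD, n = 3 each). Paraxial protocadherin (pcdh8), known in Xenopus for its part in the cell movements of gastrulation, had 8.87, 8.48 and 9.16, and the related pcdh8.2 had 8.90, 8.78 and 8.76. Axial protocadherin (pcdh1), expressed in the Xenopus notochord, had 7.08, 7.70 and 7.89.

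The agreement between pools differed within this family. The values of pcdh20 were 7.11, 7.08 and 7.02, a range of 0.09, while those of pcdh8 and pcdh1 ranged over 0.68 and 0.81. The second probe set of pcdh8 gave 6.20, 6.20 and 6.23, with almost no difference between pools. Its name ends in _x_at and that of the highest in _s_at. The third, which ends in _at alone, was under the detection level, at 3.93, 3.95 and 3.95. The second detected probe set of pcdh1 gave 7.40, 7.52 and 7.61, which also had replicate 1 lowest and replicate 3 highest but ranged over 0.21 only. Not detected were pcdh7, the NF-protocadherin of Xenopus ectoderm, at 2.09 in all 3 pools, and pcdh8l, at 1.89 ± 0.01 (SD, n = 3).

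The alpha- and delta-catenin genes were detected in 4 of 4 cases, beside 79.9% of all annotated genes. Alpha-E-catenin (ctnna1), the adaptor between the cadherin complex and actin, had 13.15, 13.06 and 13.11. A lower probe set of the same copy had 9.13, 8.81 and 9.02. The p120 catenin (ctnnd1), which keeps cadherins at the cell surface, had 11.81, 11.97 and 11.86. Alpha-N-catenin (ctnna2), the neural form, had 7.55, 7.28 and 7.54, and alpha-catulin (ctnnal1), a relative of alpha-catenin, had 8.09, 8.22 and 7.81. None of the 4 ranged over 0.5 log2 units between pools.

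Beta-catenin (ctnnb1) and plakoglobin (jup), which join cadherins to alpha-catenin and are not members by the rule, had 14.13 ± 0.08 and 12.72 ± 0.12 (SD, n = 3 each). Beside the 79.9% of all annotated genes, 15 of 19 genes with a probe set in the list of adherens junction partners were detected. Those under 4 were vcl, iqgap1, pard3 and plekha7, of which vinculin (vcl), a protein of junctions under tension, had 2.83, 2.93 and 2.92 and iqgap1 had 2.99, 3.07 and 3.93.

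Integrin alpha subunits were detected in 5 of 9 genes (55.6%) and called by limma in 3, beside 79.9% and 78.7% of all annotated genes. The alpha3 subunit (itga3), a laminin receptor of epithelia, had 11.31, 11.17 and 11.23. The alpha5 subunit (itga5), the fibronectin receptor, had 10.48, 10.62 and 10.98, and alpha6 (itga6), a laminin receptor of epithelia and neurons, had 7.16, 6.88 and 7.67. The pools of itga3 agreed within 0.14, and replicate 3 was highest for both itga5 and itga6, by 0.36 and 0.50 above the next pool. The second detected probe set of itga5 did not show this, at 8.46, 8.52 and 8.47. The other probe set of itga6 was under the detection level, at 3.64, 3.69 and 3.54, too low to show an order of pools. Its name differs from that of the detected one by the letter S in place of A, so the detection of itga6 rests on an A-named probe set. Alpha4 (itga4), common on leukocytes and neural crest, had 3.69, 3.27 and 3.34, and alphaV (itgav), the partner of several beta subunits, had 2.96, 3.10 and 3.45. The collagen-binding subunits itga2 and itga11 were at 2.31 ± 0.01 and 2.64 ± 0.29 (SD, n = 3 each).

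Integrin beta subunits were detected in 3 of 5 genes, beside 79.9% of all annotated genes. Beta1 (itgb1), which pairs with most alpha subunits, had 13.39, 13.51 and 13.50 on a probe set of its L copy, and its S copy had 12.36 ± 0.14 (SD, n = 3). Another probe set of the L copy was far lower, at 5.57, 5.57 and 5.94. Beta5 (itgb5), which pairs with alphaV, had 12.01, 11.94 and 12.02. A second probe set of itgb5 had 9.82, 10.01 and 9.06 and thus placed replicate 3 lowest by 0.76, which the first did not. Beta2 (itgb2), the leukocyte subunit, stayed under 3 on each of its 3 probe sets, with a highest mean of 2.72 ± 0.06 (SD, n = 3). Of the 9 leukocyte markers with a probe set, 8 were detected and 7 were called by limma, which did not call mpo (adjusted p = 0.0573). The detected ones ran from coro1a at 4.17, 5.07 and 4.54 to c1qb at 11.74, 11.82 and 11.41 and cd74 at 12.34, 12.45 and 12.33. Only ptprc was not detected, at 2.01, 2.02 and 1.98. Epithelial beta6 (itgb6) had 2.06, 2.06 and 2.42.

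The subunits of the platelet integrin alphaIIb-beta3, which binds fibrinogen on mammalian platelets and on the nucleated thrombocytes of other vertebrates, included the integrins with the widest range between pools, itga2b.2 and itgb3. The alphaIIb gene itga2b.2 had 4.01, 3.93 and 6.15 in replicates 1, 2 and 3, so replicate 3 lay 2.18 log2 units above the mean of the others. Its second probe set, which shares a design sequence with the first, had 3.03, 2.86 and 5.05. Beta3 (itgb3) had 4.42, 5.26 and 6.24, with replicate 3 higher by 1.40 than the mean of the others. The related itga2b.1 had 4.22, 3.95 and 4.53. Replicate 3 was the highest for all of these probe sets, and replicate 2 was under the detection level for both alphaIIb genes.

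In limma's test itgb3 was called above 4 (adjusted p = 0.0281), while itga2b.2 (adjusted p = 0.212) and itga2b.1 (adjusted p = 0.146) were not. The call of itgb3 was lost without replicate 2 (adjusted p = 0.0827), without replicate 3 (adjusted p = 0.0502) and without the mean-variance trend (adjusted p = 0.0534). Of the 49 adhesion genes, counted with no filter on their level, 3 (6.12%) had replicate 3 higher than the mean of the others by 1 or more, namely itga2b.2, itgb3 and cntn1, and 0 had it lower by as much. Over all 9240 annotated genes these shares were 1.48% and 1.04%. Among these 3 the mean of replicates 1 and 2 reached the detection level for itgb3 alone, at 4.84, and under it for itga2b.2, at 3.97, and cntn1, at 3.20.

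Markers of blood cells were split between pools. The thrombocyte and red cell list had medians of 10.08, 10.15 and 11.17 in replicates 1, 2 and 3, with replicate 3 highest in 9 of 14 genes and lowest in 4. The globin hba1 had 2.56, 3.50 and 7.75, rhag, a red cell membrane protein, had 3.93, 3.79 and 5.27, and gata1, a factor of red cells and thrombocytes, had 3.54, 3.87 and 4.74, and limma called none of these above 4. Among genes with higher values, hbg1 had 9.44, 10.22 and 12.04 and slc4a1, the anion exchanger of red cells, had 9.64, 10.05 and 10.93, while replicate 3 was lowest for the globins hba3 (15.22, 15.23 and 15.17), hbd (14.97 in that pool, with a range of 0.05) and hbe1 (12.15, 12.24 and 11.87) and for the blood cell factor nfe2 (11.80, 11.54 and 11.41). The thrombocyte glycoprotein gp9 stayed under 4 in every pool, at 2.03, 2.16 and 2.61. The glycoproteins gp1bb, a partner of gp9, and gp5 were chosen after their values were seen. Of these, gp1bb had 4.51, 4.58 and 6.14. The other, gp5, was not detected, at 2.24 ± 0.43 (SD, n = 3), with 2.74 in replicate 3, its highest pool. In the leukocyte list replicate 3 was highest in 3 of 9 genes and lowest in 4, and mpo had 4.79, 4.35 and 6.44. The part of blood cells in the integrin values was not tested.

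**Figure D2:**
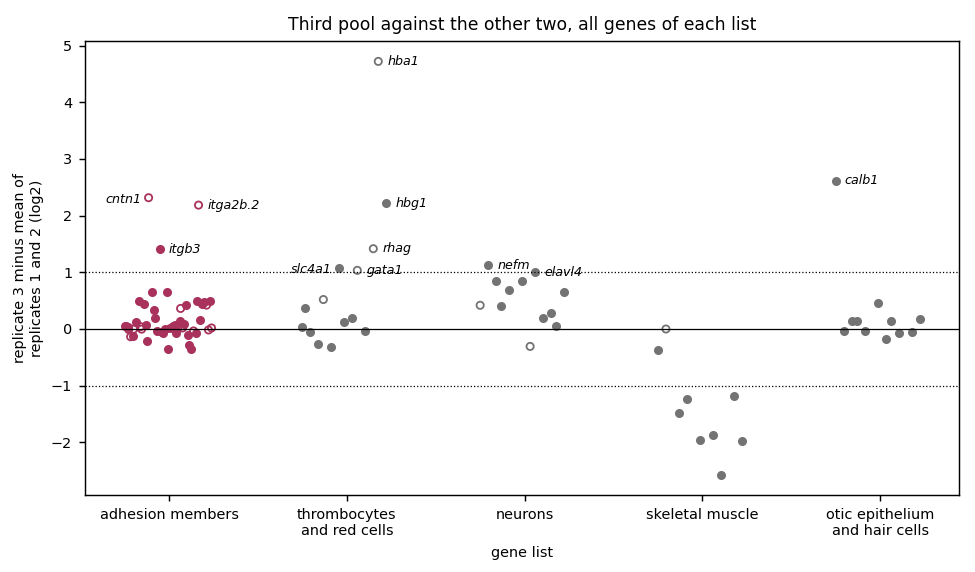
Difference between replicate 3 and the mean of replicates 1 and 2 (log2, vertical axis) for all 49 adhesion members (red) and for all genes with a probe set in 4 marker lists (grey), with open circles where the mean of replicates 1 and 2 is under 4, dotted lines at 1 and -1 and names at genes of 1 or more. Most adhesion genes lie near 0, itgb3 lies at 1.40, and itga2b.2 and cntn1, both open circles, lie at 2.18 and 2.31, while 7 skeletal muscle genes lie under -1. The leukocyte and bone lists, not drawn, each hold 1 gene of 1 or more, mpo at 1.87 and bglap at 1.71.

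The rule also took a pair of genes with integrin in their name that encode no receptor subunit. Integrin beta-like 1 (itgbl1), a secreted protein with the cysteine-rich repeats of beta subunits, had 12.53, 12.16 and 12.13. Melusin (itgb1bp2), a muscle protein that binds the tail of beta1, had 5.94, 6.07 and 6.49, and its second probe set lay at the floor, with a mean of 1.90. Its highest pool was replicate 3, in which the skeletal muscle list was lowest, with medians of 10.61, 10.82 and 9.05.

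Inside the cell, integrin tails are bound by talin, kindlins and the complex of integrin-linked kinase. All 30 focal adhesion partners with a probe set were detected, with a median value of 10.58 and a lowest value of 4.81. Integrin-linked kinase (ilk) had 10.60, 10.39 and 10.81, focal adhesion kinase (ptk2) had 11.62, 10.93 and 11.69, and kindlin-2 (fermt2) had 12.66, 12.59 and 12.72. The tetraspanin cd9, a membrane partner of integrins, had 14.71 ± 0.05 (SD, n = 3). No probe set was annotated with talin-1 (tln1). Over the 3 partner lists together, 50 of 54 genes (92.6%) were detected and all 50 were called by limma, beside the 79.9% and 78.7% of all annotated genes. These lists were written with earlier results of these data known, so the difference is a description only.

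Adhesion molecules of axons and glia were detected in 4 of 5 neural immunoglobulin genes, beside 79.9% of all annotated genes. NCAM (ncam1), which binds itself between neurons and their partners, had 11.23, 10.65 and 10.58 on its highest probe set, of the S copy. Its other probe sets had 10.84, 10.21 and 10.39 for the L copy and 9.81, 9.41 and 9.08 for the S copy. All 3 probe sets had replicate 1 highest, by 0.40 to 0.58 above the next pool.

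L1 (l1cam), which promotes axon growth and bundling, had 9.75, 9.15 and 9.89. NrCAM (nrcam), a relative of L1 at nodes of Ranvier, had 9.11, 8.93 and 9.21. Contactin-4 (cntn4) had 6.05, 6.52 and 6.76. Both l1cam and nrcam had replicate 2 lowest and replicate 3 highest, but the range of nrcam was 0.29 and that of l1cam 0.74.

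Contactin-1 (cntn1), a lipid-anchored molecule of axons and of the junctions between axon and glia, was the member with the widest spread. Its S copy had 3.59, 2.81 and 5.51, a mean of 3.97 ± 1.39 (SD, n = 3), and it passed the detection level in replicate 3 alone. Its L copy had 2.14 ± 0.04 (SD, n = 3). Limma did not call the S copy above 4 (adjusted p = 0.801). Its mean was 4.16 without replicate 1, 4.55 without replicate 2 and 3.20 without replicate 3.

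The neuron list had medians of 10.31, 9.82 and 10.71 in replicates 1, 2 and 3, with replicate 2 lowest in 10 of 12 genes and replicate 3 highest in 10 of 12. Neurofilament nefm had 9.88, 8.59 and 10.36 and the tubulin tubb3 had 11.46, 10.67 and 11.91. The order of the pools in these markers is that of l1cam, nrcam and cntn1 and not that of ncam1 or cntn4. Its part in the values of the adhesion genes was not tested. Of the axonal membrane partners, 5 of 5 genes with a probe set were detected, among them lsamp and negr1, which are immunoglobulin molecules of neurons, at 12.42 ± 0.20 and 10.82 ± 0.09 (SD, n = 3 each). No probe set was annotated with nfasc, ank3 or the cntnap genes of the list.

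Nectins, their relatives of the cadm family and the remaining immunoglobulin molecules were detected in 6 of 8 genes, beside 79.9% of all genes. The cadm proteins bind one another between axons and Schwann cells and at synapses in mammals. Of these, cadm1 had 13.39, 13.28 and 13.40, cadm3, the axonal form, had 12.01, 11.99 and 12.15, and cadm4, the Schwann cell form, had 10.20, 10.22 and 10.86. Replicate 3 was highest for each of the 3, by 0.01 for cadm1 and 0.64 for cadm4, but the other 2 detected probe sets of cadm1 had replicate 2 highest, at 9.03, 9.19 and 9.16 and at 6.72, 6.89 and 6.72. In the Schwann cell list replicate 3 was highest in 2 of 5 genes, sox10 (11.12, 11.18 and 11.22) and mal (3.41, 3.22 and 3.84). The myelin genes pmp22 and mbp had 14.64 ± 0.04 and 14.51 ± 0.07 (SD, n = 3 each), with replicate 2 highest.

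Nectins act with afadin next to cadherins, and in the mouse cochlea different nectins on hair cells and supporting cells arrange both types in a checkerboard. Nectin-2 (nectin2) had 9.25, 9.42 and 9.05 and afadin (afdn) had 12.45, 12.19 and 12.24. Nectin-1 (nectin1) was at the floor, at 1.93 in all 3 pools. Both nectin values rest on 1 probe set a gene, and no probe set was annotated with nectin3 or nectin4. ALCAM (alcam), a guidance molecule of axons and sensory ganglia, had 12.48, 12.40 and 12.48 on its S copy and 7.07, 6.44 and 6.30 on its L copy. The Hedgehog co-receptors boc and cdon differed in detection, as boc had 10.27, 10.50 and 10.52 and cdon had 2.41, 2.18 and 2.31.

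Probe sets of the same gene often disagreed. For cadm1 the 4 probe sets, all annotated as the L copy, had means of 13.36, 9.13, 6.78 and 2.01. For itga3, 1 probe set had 11.24 and the other 2 had 1.93 and 1.82. The one at 1.82 is named like that at 11.24, with the letter A in place of S. The sources used here do not say what the letter means. For itgb5 the means were 11.99, 9.63 and 2.29, the first from a probe set with the letter A. The 6 probe sets of pcdh1 included 2 above 7.5 and 4 under 3. These spreads, of up to 11.70 log2 units between probe sets annotated as 1 copy of cdh2, are many times the SD between pools.

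Of 22 members with several probe sets, 10 (45.5%) had means on both sides of 4, beside 31.2% of 3936 such genes over the array. In another 6 all probe sets were detected and in 6 none were. A gene with more probe sets can more easily lie on both sides of 4. The number of probe sets a gene, with a mean of 1.84 over all members and 1.68 over all genes, was not matched. Of the 90 member probe sets 53 (58.9%) reached 4, against 73.2% of all single-symbol probe sets, and 31 lay under 3. The letter A stands in the name of 12 of the 90, of which 5 reached 4. These shares were not counted again without them. For genes with 1 probe set only, 20 of 27 members (74.1%) were detected, against 74.2% of all such genes. A value under 4 therefore describes the probe set and does not show that the transcript is absent. With the probe set of the lowest mean in place of the highest, 26 members (53.1%) were detected, against 66.6% of all genes.

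**Figure D3:**
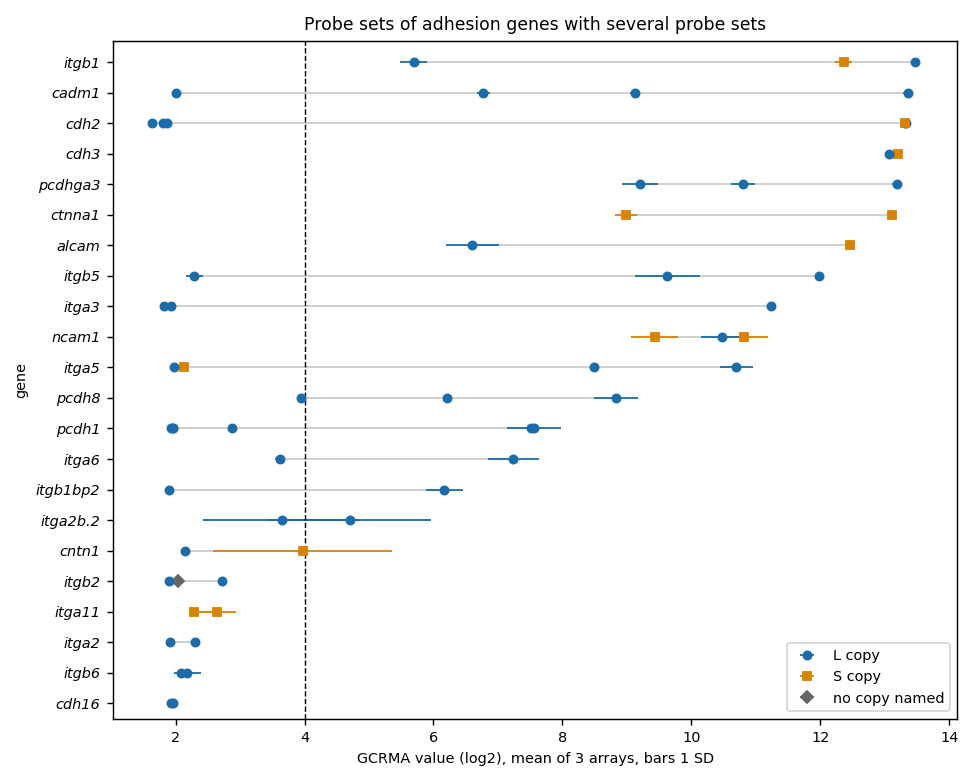
Mean GCRMA value (log2, horizontal axis, bars 1 SD over 3 arrays) of each probe set of the 22 adhesion genes that have several, with circles for the L copy, squares for the S copy and a diamond where no copy is named. In 10 genes the points lie on both sides of the dashed line at 4, and for cdh2, cadm1, itga3 and itgb5 the lowest probe set is under 2.3.

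Both copies had a probe set in 7 members. In alcam, cdh2, cdh3, itgb1 and ncam1 probe sets annotated as each copy were detected, and in cntn1 those of neither were. In itga5 the L copy had 10.69 ± 0.26 and the S copy 2.12 ± 0.04 (SD, n = 3 each). As another probe set of itga5.L itself had 1.97 ± 0.01 (SD, n = 3), the value of the S copy is within what probe sets of 1 copy showed.

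Of the 36 detected members, 13 (36.1%) ranged over 0.5 log2 units or more between pools, against 20.2% of all detected genes. They were cdh1, cdh26, pcdh1, pcdh8, itga6, itga2b.1, itga2b.2, itgb3, itgb1bp2, ncam1, l1cam, cntn4 and cadm4. The median range of detected members was 0.33, against 0.27 for all detected genes. Of these, itga2b.2 reached a mean of 4 only through replicate 3. Replicate 3 was the highest pool for 19 of the 36 (52.8%), replicate 1 for 11 and replicate 2 for 6. Over all 7381 detected genes replicate 3 was highest in 30.3% and replicate 2 in 42.3%. Both counts took a lead of any size. For members with replicate 3 highest, the lead over the next pool ran from 0.01 for cadm1 and itgb5 to 2.14 for itga2b.2. Other detected probe sets of cadm1, cdh2, itga5, itgb5 and pcdhga3 had another pool highest, while those of pcdh1 and pcdh8 also had replicate 3 highest. Without replicate 3 the count of members with a range of 0.5 or more was 5 of 35 (14.3%), against 9.54% of all genes detected in that setting.

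**Figure D4:**
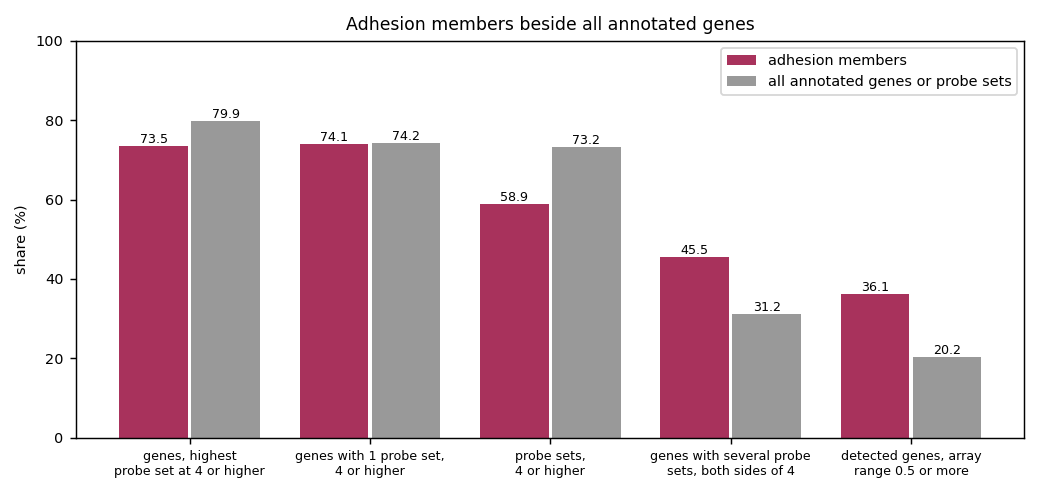
Shares in percent (vertical axis, from 0) of adhesion members (red, left) and of all annotated genes or probe sets (grey, right) for 5 counts named under the bars. Members are close to all genes where a gene has 1 probe set (74.1 and 74.2%), lie lower for single probe sets (58.9 and 73.2%) and lie higher for disagreeing probe sets (45.5 and 31.2%) and for a range of 0.5 or more between pools (36.1 and 20.2%).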

How the data were processed

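Total RNA of 3 pools of larval inner ears was measured on 1 Affymetrix GeneChip array each. The authors deposited log2 intensities made by GCRMA, which corrects the background, normalizes between arrays and summarizes the probes of each probe set. The software is not given in the sources used here. Gene symbols came from the platform annotation, in which 15495 of 32475 frog probe sets have 1 symbol. Gene IDs of 89 of the 90 member probe sets were found in RefSeq, assembly v10.1, with 0 changed symbols. As the array names no genome build, no coordinates are given. L and S copies were counted as 1 gene. A mean above 4 was tested with limma 3.58.1 in R 4.3.3 (one-sided, mean-variance trend, threshold of 0.05 for p adjusted over all frog probe sets), which was tested on simulated data. Counts were made in Python 3.11.15 with pandas 2.3.3.

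The members, gene lists and families were chosen with earlier results of these data known. The family pattern was corrected after the file was read, so that itga2b.1 and itga2b.2 count as alpha subunits. Values are given for the 25 highest members, the highest and lowest of each family, those with arrays or probe sets on both sides of 4 or a range of 0.5 or more, and genes that mark a cell type or are core partners. Further genes were chosen after their values were seen. Named in advance but without a probe set of their own were cdh5, nfasc, itga8, mcam, cdh23, pcdh15, tln1 and ank3.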

Additional observations from a re-analysis of the deposited data

How the results depend on the processing

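No count of detected or called members left the range of 1.5 times its main value under the alternatives run. With 36 detected and 34 called of 49 genes, a rise to 1.5 times was not possible unless copies were counted apart. The range is thus wide and mainly limits a fall. The alternatives were a detection level of 3 or 5 and the median or lowest probe set of a gene. Further ones were probe sets ending in _s_at, _x_at or _a_at left out, copies counted apart and quantile normalization. As GCRMA already normalizes between arrays, quantile normalization could change little, and it gave the main counts of 36 detected and 34 called members. The lowest array, other limma settings and each array left out were also run. Detected members were 26 to 41 and members called by limma 25 to 39. The lowest counts came with the lowest probe set (53.1% and 51.0%, against 66.6% and 65.1% of all genes). The highest came with copies counted apart (41 and 39 of 57, or 71.9% and 68.4%, against 79.1% and 77.9%). The count of detected members with a range of 0.5 or more was 5 to 9 when 1 array was left out, against 13 with all arrays, and that over all genes was 704 to 946, against 1489. A range over 2 arrays cannot exceed that over 3. Leaving out probe sets whose name carries the letter A, added after the data were seen, gave 33 detected members of 48 (68.8%), against 77.8% of all genes. It removed the value of cdh26 and took itga6 to 3.62 and itgb1bp2 to 1.90, under the detection level. Leaving out those ending in _s_at, _x_at or _a_at also gave 33 of 48 (68.8%), against 78.7% of all genes. It left no value for ctnnd1 and took pcdh1 to 1.96 and pcdh8 to 3.94. The lost probe sets of ctnnd1 and pcdh1 end in _a_at. No depth can be given for arrays, and with 3 pools of 1 condition no comparison between conditions could be made.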

Other observations

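Probe sets annotated with both copies of a member gene were outside the rule. The one for ncam1.L and ncam1.S had 8.82, 7.93 and 8.01 in replicates 1, 2 and 3, with replicate 1 highest as in the 3 probe sets of ncam1. The one for alcam.S and alcam.L had 10.50, 10.18 and 10.27.

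The calcium-binding protein calbindin (calb1), from the otic list, was another gene far higher in replicate 3, at 8.19, 8.15 and 10.79, while the other 10 otic genes with a probe set differed by less than 1 log2 unit. The bone protein osteocalcin (bglap) had 9.54, 9.52 and 11.24.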
